A study of Homo sapiens with 6 samples.

Results

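Genes of the Notch and Hedgehog signalling pathways were examined in HCT116 cells sorted by the surface glycoprotein CD133. HCT116 is an established cell line grown from a human colorectal carcinoma. The set comprised 36 named genes, 26 of the Notch pathway and 10 of the Hedgehog pathway, among 18404 genes with a probe set of their own on the array. Probe sets were taken where their single gene symbol was a listed gene, and the probe set with the highest mean over all arrays stood for the gene. In this way 35 genes were measured, all 10 Hedgehog genes and 25 of the Notch genes. MAML1, a co-activator of Notch transcription, was covered only by 2 probe sets that carried a second gene symbol, and was not analysed here.

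Total RNA of the CD133+ and the CD133- fraction was hybridised to 6 arrays, with repetition numbers 1, 2 and 3 given for either fraction. Both fractions come from this 1 line, the labels name no drug or genetic change, and the comparison asked which transcripts distinguish them. Whether repetitions were separate cultures or sorts is not stated, so the p-values here reflect spread among these arrays that may be technical. Values are log2 signals after Robust Multichip Average (RMA), which corrects background, brings arrays to a shared distribution and combines probes into 1 value per probe set. A difference is CD133+ minus CD133- on this log2 scale, fitted with limma with the repetition as a block, and a gene was called where its Benjamini-Hochberg adjusted p over 28230 probe sets was under 0.05.

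Notch receptors are activated by Delta-like and Jagged ligands on neighbouring cells, after which ADAM proteases and gamma-secretase release an intracellular domain that joins the DNA-binding protein RBPJ and a Mastermind co-activator to switch on repressors of the HES and HEY families. In the intestinal crypt this signal keeps progenitors proliferative and steers them away from secretory fates. Hedgehog ligands act by binding Patched receptors, which frees Smoothened and lets GLI factors enter the nucleus, and in the gut the epithelium releases the ligand while the mesenchyme mostly responds to it. PTCH1, HHIP and GLI1 are themselves target genes of the pathway.

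PROM1, the gene of CD133, measured 7.59, 7.36 and 7.09 in CD133+ repetitions 1, 2 and 3 and 5.30, 4.46 and 3.97 in CD133-, a difference of 2.77 (SE 0.16) with limma adjusted p = 0.0120 (0.142 without the block). The fit called 84 probe sets, a number that became 43 without repetition 1, 18 without repetition 2 and 0 without repetition 3 (2276 at an unadjusted p under 0.05). The PROM1 adjusted p was 0.0980 without repetition 3, and 0.0743 to 0.595 with single arrays left out of a fit without the block. Of the 9 colon epithelial markers, EPCAM, KRT8, KRT18 and KRT19 had mean signals between 10.89 and 12.14 in either fraction, against a median of 5.53 over all probe sets, whereas LGALS4 and VIL1 lay below that median. The leukocyte marker PTPRC and the fibroblast marker LUM, the dimmest of their lists, measured 2.33 to 2.44 and 2.22 to 2.23 as group means. By mean signal, 1 of the 6 leukocyte, 2 of the 8 fibroblast and 1 of the 6 endothelial markers lay above the median. Among these, the leukocyte marker CD68 had group means of 6.88 to 7.10 and the fibroblast marker COL1A1 of 7.38 to 7.57. Summed linear signals ranged from 11410 to 11950 in CD133+ and from 12480 to 12740 in CD133- for the epithelial list, from 297.6 to 408.0 and from 308.5 to 448.5 for the 8 fibroblast markers, from 188.0 to 272.6 and from 168.7 to 255.4 for the 6 leukocyte markers, and from 122.0 to 130.7 and from 121.9 to 144.4 for the 6 endothelial markers. The epithelial sums did not overlap between fractions, with KRT8 (-0.24) and KRT18 (-0.48) lower in CD133+. In the same list 6 of 9 genes had differences above 0, among them CLDN7 (0.48), CDH1 (0.40) and EPCAM (0.22). The median was 0.051 and 0 were called, against 0.369% of all genes. The part of these markers in the results on the pathways was not tested. In sorted bulk RNA, fewer cells of a type and less RNA per cell cannot be told apart.

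None of the 35 measured genes was called, in either direction, against 0.369% of all genes, and without the repetition block the count was 0 as well, against 0.00543% of all genes. At an unadjusted limma p under 0.05, 4 genes were lower in CD133+ cells and 0 were higher, where the share of all genes was 5.73% lower and 5.90% higher. The 4 were HES1 and HEY2, transcriptional repressors of the Notch target family, MAML2, a co-activator of the Notch transcription complex, and PTCH1, the Hedgehog receptor. Without the block only HES1 and HEY2 stayed under that p, so the count was 2 lower and 0 higher, where that fit gave 1.89% of all genes lower and 1.58% higher. The median difference was -0.0084 over the 25 Notch genes and -0.069 over the 10 Hedgehog genes, beside -0.0064 over all genes. Adjusted p values of the 35 genes ran from 0.196 to 0.993, and the 95% intervals of their differences all lay between -0.56 and 0.47.

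More of these genes were lower than higher in CD133+ cells in every repetition. The 3 within-repetition differences were all below 0 for 12 of the 35 genes and all above 0 for 2, where all genes gave 18.4% below and 17.7% above. By pathway, 8 of the 25 Notch genes were all below and 2 all above, and 4 of the 10 Hedgehog genes were all below and 0 all above. The 12 were NOTCH1, NOTCH2, NOTCH4, JAG1, LFNG, MAML2, HES1, HEY2, PTCH1, HHIP, GLI1 and GLI2, and the 2 were DLL3 and NRARP. The arrays of the fractions did not overlap for 3 genes lower in CD133+, HES1, HEY2 and GLI1, and for 1 gene higher, NRARP, against 4.52% and 3.43% of all genes.

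**Figure D1:**
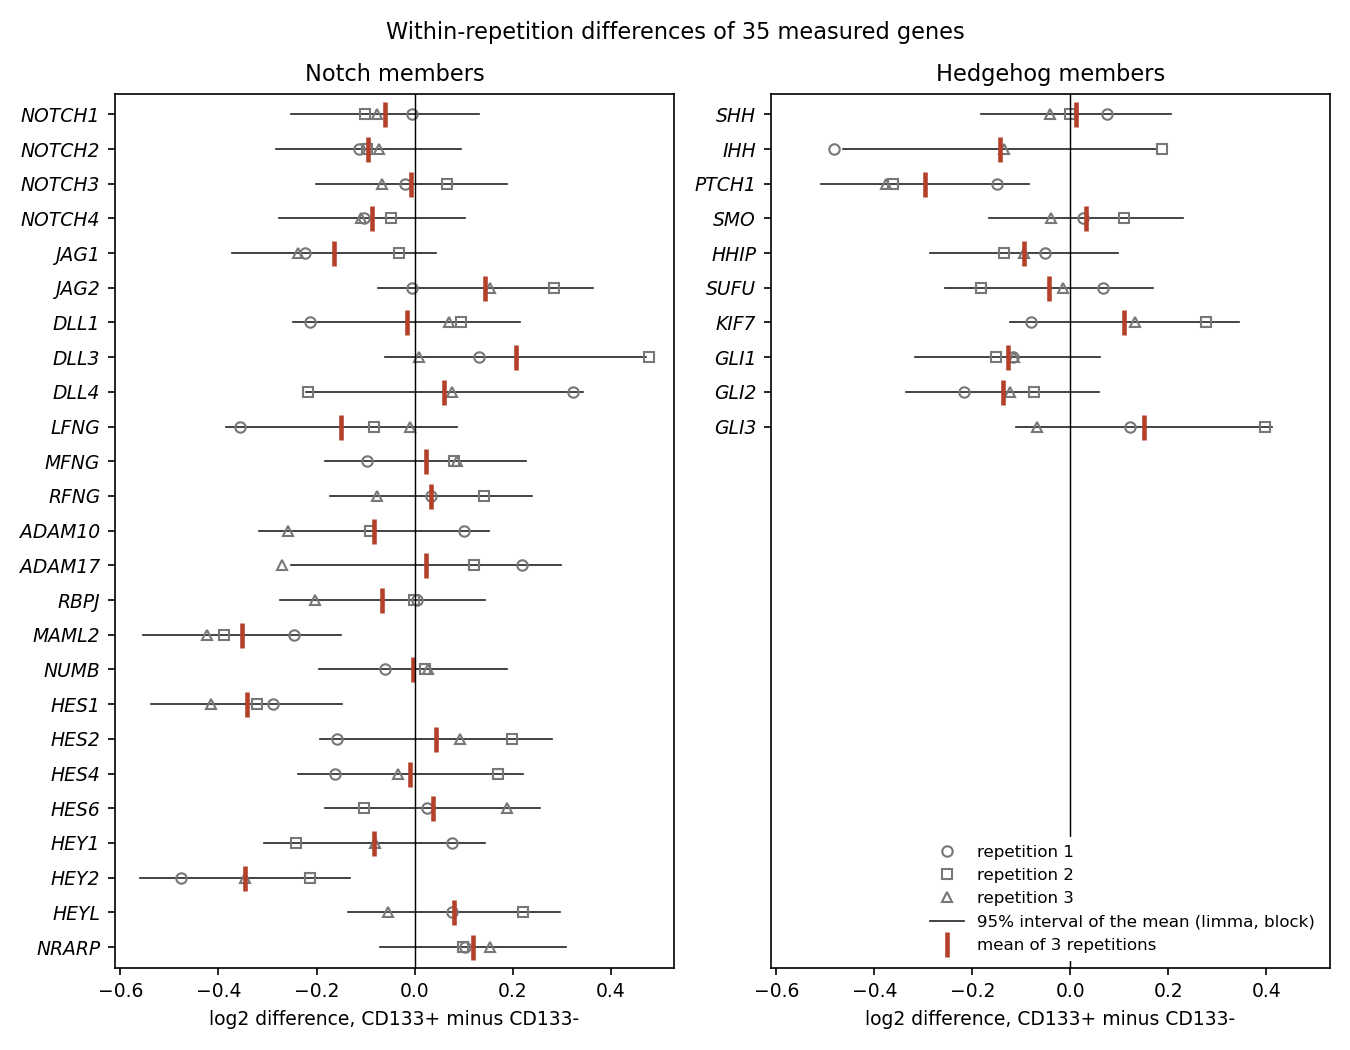
Log2 difference (CD133+ minus CD133-) of each measured gene on the horizontal axis, in order of role, with 1 open symbol per repetition, a red bar for their mean and a line for the 95% interval. The intervals of MAML2, HES1, HEY2 and PTCH1 lie wholly below 0, before adjustment for the number of probe sets, and all others cross it.

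The 4 Notch receptors differed little between fractions. NOTCH1 (probe set 8165217) measured 7.38, 7.20 and 7.34 in CD133+ repetitions 1, 2 and 3 and 7.39, 7.30 and 7.41 in CD133-. NOTCH2 (7919095) measured 8.74, 8.58 and 8.69 against 8.86, 8.68 and 8.76, and this value is uncertain because the NOTCH2NL copies share much of its sequence. The ranges of the fractions overlapped for both, although each CD133+ array was below its CD133- partner. NOTCH4 (8125383), a receptor known mainly from endothelium, measured 5.90, 5.69 and 6.10 against 6.01, 5.74 and 6.21, again lower within each repetition. Differences were -0.061 for NOTCH1 (SE 0.080, 95% interval -0.25 to 0.13), -0.094 for NOTCH2 (interval -0.28 to 0.095) and -0.087 for NOTCH4 (interval -0.28 to 0.10), with limma adjusted p values of 0.831, 0.720 and 0.744. NOTCH3 was set apart by repetition and not by fraction. It measured 7.40, 6.51 and 7.59 in CD133+ and 7.42, 6.44 and 7.65 in CD133-, so both arrays of repetition 2 lay well below the other 4, while its difference was -0.0066 (interval -0.20 to 0.19, adjusted p = 0.986).

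Ligand genes went in both directions, with 3 of 5 above 0 and 2 below. JAG1 (8064978), a Jagged ligand, measured 8.11, 8.14 and 8.29 in CD133+ and 8.34, 8.17 and 8.53 in CD133-. Its gap was wide in repetitions 1 and 3 and nearly closed in repetition 2, where the arrays differed by -0.033, and the difference of -0.17 (SE 0.086, interval -0.37 to 0.043) had a limma adjusted p of 0.539. JAG2, the other Jagged ligand, went the opposite way at 0.14 (interval -0.075 to 0.36, adjusted p = 0.625), with within-repetition differences of -0.0054, 0.28 and 0.15. DLL3 (8028719), a Delta-like protein that does not activate receptors on neighbouring cells, measured 4.61, 4.92 and 5.11 against 4.48, 4.45 and 5.10. Repetition 2 gave most of its difference of 0.21 (SE 0.11, interval -0.060 to 0.47, adjusted p = 0.550), which was 0.0098 in repetition 3 and 0.071 with repetition 2 left out. The activating Delta-like ligands DLL1 and DLL4 had differences of -0.016 and 0.061. Their repetitions disagreed in sign, at -0.21, 0.096 and 0.069 for DLL1 and 0.32, -0.22 and 0.076 for DLL4.

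Enzymes that modify or cut the receptor showed no called difference. LFNG (8131143), a Fringe glycosyltransferase that tunes which ligand a receptor answers to, measured 5.18, 5.22 and 5.37 in CD133+ and 5.54, 5.30 and 5.38 in CD133-. Repetition 1 had the widest gap, and the difference of -0.15 (SE 0.098, interval -0.38 to 0.087, limma adjusted p = 0.636) became -0.046 without that repetition. The other Fringe genes, MFNG and RFNG, had 0.023 and 0.033. ADAM10, the main protease of ligand-induced receptor cleavage, had group means of 9.61 ± 0.11 and 9.69 ± 0.14 (SD, n = 3 each) and a difference of -0.082. ADAM17, a related sheddase, had 7.94 ± 0.23 and 7.92 ± 0.047, a difference of 0.024. Both had repetitions of either sign, with 0.10, -0.091 and -0.26 for ADAM10 and 0.22, 0.12 and -0.27 for ADAM17.

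Among nuclear partners and inhibitors, MAML2 had the difference farthest from 0 of all 35 genes. MAML2 (7951133), a Mastermind co-activator that joins RBPJ and the receptor's intracellular domain on DNA, measured 4.58, 4.26 and 5.39 in CD133+ and 4.83, 4.65 and 5.81 in CD133-. Each CD133+ array was below its partner, with differences of -0.25, -0.39 and -0.42, but the fractions overlapped because both arrays of repetition 3 exceeded the other 4. The difference was -0.35 (SE 0.084, interval -0.55 to -0.15), with a limma unadjusted p of 0.00482 and an adjusted p of 0.197, and an unadjusted p of 0.369 without the block. It ranged from -0.41 to -0.32 with 1 repetition left out and became 0.0056 in the fit without the block that left out CD133- repetition 3, which unbalances the repetitions. The signal of this probe set lay below the median of 5.53 over all probe sets.

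RBPJ, the DNA-binding factor on which the Notch complex assembles, followed the repetitions. It measured 9.26, 8.53 and 8.84 in CD133+ and 9.25, 8.53 and 9.04 in CD133-, lowest in repetition 2, with a difference of -0.066 (interval -0.28 to 0.14, adjusted p = 0.831). A second RBPJ probe set (8155458) of lower signal had a difference of -0.013 (SE 0.12). NUMB, an endocytic inhibitor of Notch receptors, had group means of 7.53 ± 0.14 and 7.53 ± 0.18 (SD, n = 3 each), a difference of -0.0034 (interval -0.20 to 0.19).

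The HES and HEY families and NRARP, genes that Notch induces in many tissues, divided into a pair with lower signal in CD133+ cells, 1 gene with slightly higher signal and 5 whose repetitions did not share a sign. HES1 (8084880), the basic helix-loop-helix repressor that is the classical Notch target of intestinal progenitors, measured 8.63, 8.63 and 8.53 in CD133+ repetitions 1, 2 and 3 and 8.92, 8.95 and 8.94 in CD133-. Its CD133- arrays lay close together, and every CD133+ array was below them. Group means were 8.59 ± 0.057 and 8.93 ± 0.016 (SD, n = 3 each), a difference of -0.34 (SE 0.081, interval -0.54 to -0.15), or 1.27-fold. Its unadjusted limma p was 0.00473 with the block and 0.00943 without, and the adjusted p was 0.196 and 1.00. It was called in 1 alternative, an eBayes fit with an intensity trend and robust variances (adjusted p = 0.0486), and its adjusted p ranged from 0.0581 to 1.00 over the others.

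HEY2 (8121850), a related repressor best known from heart and vessels, measured 4.03, 4.26 and 4.17 in CD133+ and 4.51, 4.47 and 4.52 in CD133-. The fractions were again apart, with the widest gap in repetition 1. Its difference was -0.35 (SE 0.089, interval -0.56 to -0.13), with a limma unadjusted p of 0.00713 (0.0133 without the block) and an adjusted p of 0.236. Its signal lay below the median over all probe sets, and so did that of HEY1, which had a difference of -0.082 (interval -0.31 to 0.14) and within-repetition values of 0.077, -0.24 and -0.081.

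NRARP (8165508), a small ankyrin-repeat protein that Notch induces and that dampens the Notch complex, measured 7.017, 7.005 and 6.970 in CD133+ and 6.91, 6.90 and 6.82 in CD133-. Every CD133+ array was above every CD133- array, against the direction of HES1 and HEY2, and the difference of 0.12 (SE 0.079, interval -0.071 to 0.31) had a limma adjusted p of 0.639. HEYL, the third HEY gene, had 0.081 (interval -0.14 to 0.30). HES2, HES4 and HES6 had differences of 0.044, -0.0084 and 0.037, with intervals of -0.19 to 0.28, -0.24 to 0.22 and -0.18 to 0.26. HES6 is a family member that counteracts HES1 and is not itself driven by Notch in most settings.

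**Figure D2:**
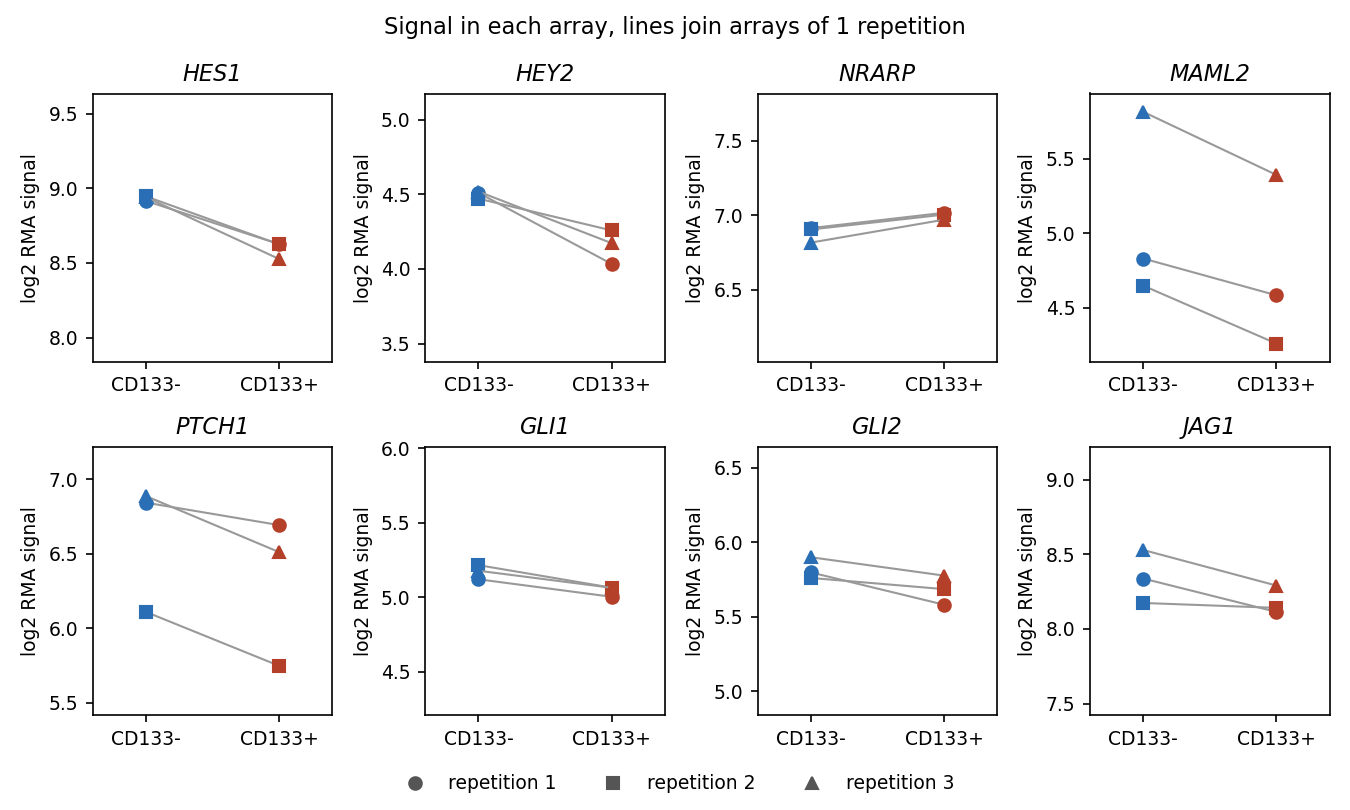
Log2 RMA signal of 8 genes in each of the 6 arrays, with CD133- (blue) on the left, CD133+ (red) on the right and lines joining arrays of 1 repetition; all panels span the same height. HES1, HEY2, NRARP and GLI1 separate the fractions, whereas MAML2 and PTCH1 are lower in CD133+ along each line but differ more between repetitions than between fractions.

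The sequence upstream is shown for HES1, HEY2 and PTCH1, the target genes at an unadjusted p under 0.05, and for NRARP, the target gene whose arrays separated in the other direction. RefSeq promoter windows on GRCh38.p14 were matched by symbol for 30 of the 36 listed genes (not GLI1, GLI3, DLL1, DLL3, MFNG or HEY1), and the 250 bases before each start were searched on both strands for the RBPJ core TGGGAA, its longer form GTGGGAA, which contains the core, and the GLI motif TGGGTGGTC. Capitals mark matches in the windows of HES1 (chr3:194135898-194136147, plus strand), HEY2 (chr6:125749382-125749631, plus strand), NRARP (chr9:137302272-137302521, minus strand) and PTCH1 (chr9:95509267-95509516, minus strand), each read 5′ to 3′ along the gene.
HES1: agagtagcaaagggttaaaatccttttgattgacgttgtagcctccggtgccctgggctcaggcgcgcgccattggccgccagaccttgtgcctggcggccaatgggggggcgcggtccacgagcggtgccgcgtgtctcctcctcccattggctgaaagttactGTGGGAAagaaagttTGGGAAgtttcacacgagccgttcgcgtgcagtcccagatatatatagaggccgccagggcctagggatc
HEY2: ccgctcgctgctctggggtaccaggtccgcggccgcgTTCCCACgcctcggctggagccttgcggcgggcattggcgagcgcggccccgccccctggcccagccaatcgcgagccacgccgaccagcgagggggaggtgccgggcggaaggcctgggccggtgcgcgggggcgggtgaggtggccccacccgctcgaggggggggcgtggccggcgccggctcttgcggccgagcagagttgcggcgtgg
NRARP: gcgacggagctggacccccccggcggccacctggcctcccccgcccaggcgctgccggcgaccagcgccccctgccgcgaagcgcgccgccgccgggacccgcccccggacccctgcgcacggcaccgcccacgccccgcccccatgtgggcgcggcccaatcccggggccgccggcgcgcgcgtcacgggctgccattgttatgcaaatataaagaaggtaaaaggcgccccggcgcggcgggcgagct
PTCH1: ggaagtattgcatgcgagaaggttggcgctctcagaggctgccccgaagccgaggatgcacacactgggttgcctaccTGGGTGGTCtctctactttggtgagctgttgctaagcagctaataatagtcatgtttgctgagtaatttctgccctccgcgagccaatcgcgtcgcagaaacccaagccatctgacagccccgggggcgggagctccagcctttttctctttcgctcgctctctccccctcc

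The HES1 window held a GTGGGAA starting 85 bases before the start of the gene and a TGGGAA starting 70 bases before it, both in the direction of the gene. The HEY2 window held 1 match, on the opposite strand at 213 to 207 bases before the start, and no match was found in the NRARP window. Of the 35116 windows of all genes, 20.8% held the core and 5.43% the longer form, and these shares count several windows for some genes. The core was found in 6 of the 40 windows of listed genes, those of the 5 genes with the longer form and of LFNG. The 5 were HES1, HEY2, HES4, HEYL and RBPJ. Their differences of -0.34, -0.35, -0.0084, 0.081 and -0.066 were not alike. The GLI motif was present in 0.199% of all windows and, among the listed genes, in 1 of the 5 windows of PTCH1, at 172 to 164 bases before that start. The PTCH1 window shown was picked from the 5 because it held this motif, whereas HES1, HEY2 and NRARP had 1 window each.

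Hedgehog ligand genes did not separate the fractions. SHH (8144078), Sonic hedgehog, measured 6.02, 5.91 and 6.34 in CD133+ and 5.95, 5.91 and 6.38 in CD133-. Partner arrays nearly coincided, and repetition 3 was highest in both fractions, so the difference was 0.011 (SE 0.080, interval -0.18 to 0.20, limma adjusted p = 0.976). IHH, Indian hedgehog, the ligand of differentiated colonocytes, had within-repetition differences of -0.48, 0.19 and -0.14 and a mean of -0.14 (interval -0.46 to 0.18, adjusted p = 0.752).

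PTCH1 (8162533), the receptor that holds Smoothened inactive and is induced by the pathway, measured 6.69, 5.75 and 6.51 in CD133+ repetitions 1, 2 and 3 and 6.84, 6.11 and 6.89 in CD133-. Every CD133+ array was below its partner, but both arrays of repetition 2 lay under the other 4, so the fractions overlapped. The difference was -0.30 (SE 0.088, interval -0.51 to -0.084), 1.23-fold, with a limma unadjusted p of 0.0137 (0.344 without the block) and an adjusted p of 0.297. With a repetition left out it ranged from -0.37 to -0.26. In the fits without the block it was -0.012 without CD133+ repetition 2 and -0.55 without CD133- repetition 2, which unbalance the repetitions.

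HHIP (8097628), a decoy that binds Hedgehog ligands and is likewise a target gene, measured 3.69, 3.52 and 3.67 in CD133+ and 3.74, 3.65 and 3.77 in CD133-. Its gaps were small but of 1 sign, and the difference of -0.095 (interval -0.29 to 0.096) had a limma adjusted p of 0.722 at a signal far under the median of all probe sets. SMO, the signal transducer Smoothened, had 7.11 ± 0.076 and 7.08 ± 0.14 as group means (SD, n = 3 each) and a difference of 0.032 (interval -0.17 to 0.23). SUFU (7930120), which retains GLI proteins in the cytoplasm, measured 6.63, 6.52 and 6.67 against 6.56, 6.70 and 6.68. The order of its arrays differed between repetitions, and the difference was -0.044 (SE 0.088, interval -0.26 to 0.17). KIF7, a ciliary kinesin that regulates GLI proteins, had 0.11 (interval -0.12 to 0.34).

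Of the GLI transcription factors, GLI1 and GLI2 were slightly lower in CD133+ cells in each repetition and GLI3 was not. GLI1 (7956430), an activator and a target gene, measured 5.004, 5.065 and 5.064 in CD133+ and 5.12, 5.22 and 5.18 in CD133-. All 3 CD133+ arrays lay below all CD133- arrays, with gaps of -0.12, -0.15 and -0.11, and the difference of -0.13 (SE 0.078, interval -0.32 to 0.061) had a limma adjusted p of 0.613. GLI2 (8044933), the main activator downstream of Smoothened, measured 5.58, 5.69 and 5.78 against 5.80, 5.76 and 5.90. Its fractions overlapped by 1 pair of arrays, and the difference was -0.14 (SE 0.081, interval -0.33 to 0.058, adjusted p = 0.595). GLI3, mainly a repressor in the absence of ligand, had 0.15 (interval -0.11 to 0.41) with repetitions of 0.12, 0.40 and -0.069. GLI1 and GLI3 signals lay below the median over all probe sets.

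By raw sum of squares, levels of most of these genes varied more between repetitions than between fractions. The repetition held the largest share of the sum of squares for 21 of 35 genes, the fraction for 6 and the residual for 8. Over all genes these counts were 13277, 2227 and 2900 of 18404. The shares were not scaled for there being more repetitions than fractions, which by itself enlarges the share of the repetition. The fraction took 96.1% of the variation of HES1, 86.9% of that of HEY2, 77.7% for GLI1, 75.4% for NRARP, 49.4% for GLI2 and 47.7% for JAG2, beside a median of 13.0% over the 35 genes and 8.21% over all genes. At the other end the repetition took 99.7% of the variation of NOTCH3, 98.5% for SHH, 97.6% for NUMB and 96.3% for RBPJ. NOTCH3 averaged 7.41, 6.48 and 7.62 over both fractions in repetitions 1, 2 and 3, PTCH1 averaged 6.77, 5.93 and 6.70, RBPJ averaged 9.26, 8.53 and 8.94 and MAML2 averaged 4.71, 4.45 and 5.60. All 4 were thus lowest in repetition 2, and NOTCH3 and MAML2 were highest in repetition 3.

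**Figure D3:**
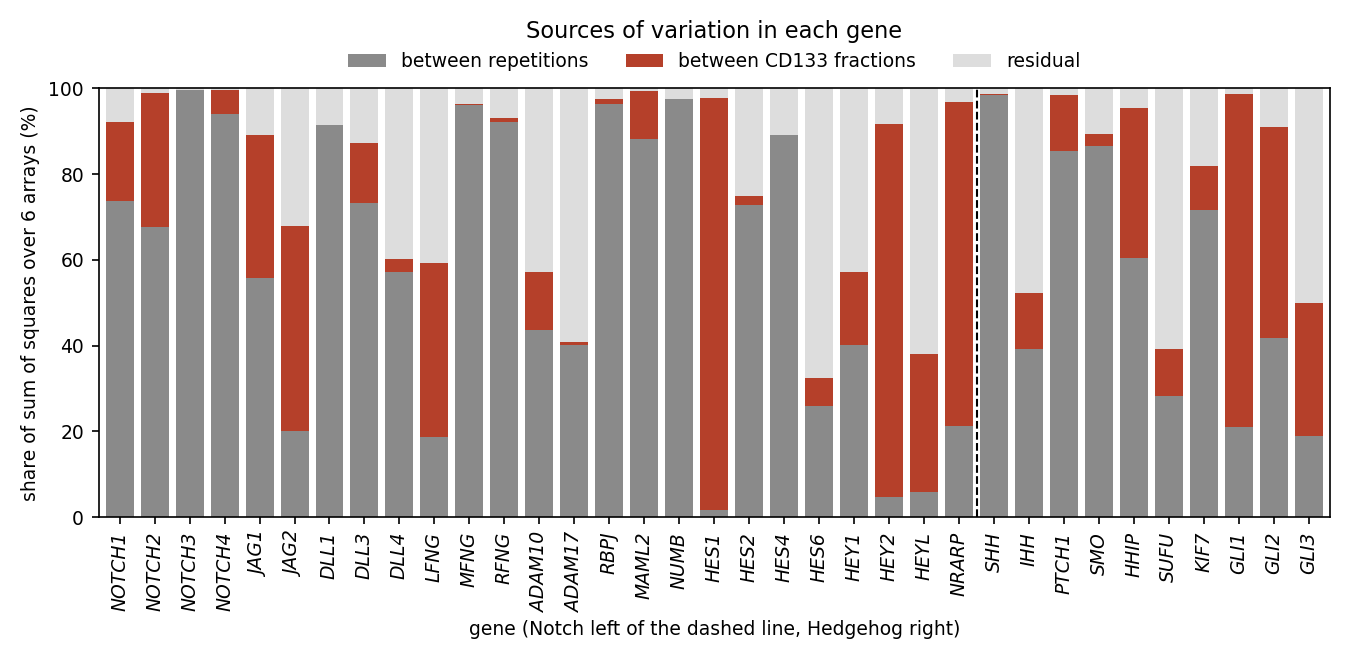
Share of the sum of squares over 6 arrays (percent) that lies between repetitions (mid grey), between CD133 fractions (red) and in the residual (light grey), 1 stacked bar per gene. The red share is the largest for HES1 (96.1%), HEY2, GLI1, NRARP, GLI2 and JAG2, and the mid grey share is the largest for 21 genes.

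Other genes of the Notch pathway were taken as a list of 36, of which 34 were measured, and 0 passed in either direction, with 2 higher and 1 lower at an unadjusted limma p under 0.05. Over all genes 0.369% passed, and 5.90% were higher and 5.73% lower at that unadjusted p. The median difference of the list was -0.0065, with 16 above 0 and 18 below. MAML3, the third Mastermind co-activator, had a difference of 0.25 (SE 0.081, adjusted p = 0.330), opposite in sign to MAML2. It measured 4.90, 4.53 and 4.82 in CD133+ and 4.61, 4.24 and 4.64 in CD133-, higher in 3 of 3 repetitions. AAK1, a kinase of clathrin-mediated endocytosis, had -0.29 (SE 0.095, adjusted p = 0.332). HES5, a Notch target of the same family as HES1, had -0.13 (interval -0.33 to 0.073), lower in each repetition. HES7, also of that family, had 0.13 (interval -0.072 to 0.33), higher in each repetition. Both are named here after their values were seen.

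The subunits of gamma-secretase, the complex that makes the final cut of the receptor, were singled out after their values were seen. All 5 measured subunits had differences above 0, namely 0.19 for the catalytic presenilin PSEN2, 0.24 for the substrate-recognising NCSTN, 0.21 for the scaffold APH1A, 0.23 for its paralogue APH1B and 0.056 for PSENEN. The first 4 were higher in each repetition, and PSENEN in 2 of 3. PSEN2 measured 6.78, 7.01 and 6.83 in CD133+ and 6.67, 6.76 and 6.62 in CD133-, without overlap. None of the 5 subunits passed, with limma adjusted p values of 0.367 to 0.874 and standard errors of 0.081 to 0.10. In the list of other Notch genes, 1 was higher and 1 lower without overlap, against 3.43% and 4.52% of all genes.

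A list of intestinal lineage and stem cell genes was measured for 13 of 15, with 6 above 0, 7 below and 0 called, against 0.369% of all genes. At an unadjusted limma p under 0.05, 2 were higher and 2 lower, where all genes gave 5.90% higher and 5.73% lower. ATOH1, the secretory fate factor that HES1 represses, was named after its value was seen and measured 5.43, 5.64 and 5.57 in CD133+ and 5.55, 5.51 and 5.57 in CD133-, with an interval of the difference of -0.21 to 0.21. ASCL2, a transcription factor of crypt stem cells, measured 5.27, 5.29 and 5.39 against 4.92, 4.96 and 5.15. Its fractions did not overlap, at a difference of 0.30 (SE 0.081, adjusted p = 0.246). Over all genes 3.43% were higher without overlap. KLF4, a factor of differentiating colonocytes and goblet cells, had 0.25 (SE 0.080, adjusted p = 0.333), higher in 3 of 3 repetitions. The 2 lower genes, named after their values were seen, were NEUROG3, the endocrine fate factor, at -0.23 (SE 0.081, adjusted p = 0.365) and SOX9, a factor of crypt progenitors, at -0.23 (SE 0.084, adjusted p = 0.386), both lower in 3 of 3 repetitions. The stem cell genes LGR5 and OLFM4, likewise named afterwards, had 0.065 (interval -0.14 to 0.27) and 0.042 (interval -0.24 to 0.32). Their mean signals of 3.33 and 2.85 lay far below the median of 5.53 over all probe sets, so these differences say little about them.

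Of 28 other Hedgehog pathway genes 25 were measured, with 10 above 0, 15 below and 0 called, against 0.369% of all genes. At an unadjusted limma p under 0.05, 3 were higher and 2 lower, where all genes gave 5.90% higher and 5.73% lower. The 2 genes of the list with the smallest p encode catalytic subunits of protein kinase A, which phosphorylates GLI proteins. PRKACB measured 10.03, 10.06 and 9.98 in CD133+ and 9.83, 9.52 and 9.46 in CD133-, a difference of 0.42 (SE 0.098, adjusted p = 0.194). PRKACA measured 9.03, 9.13 and 9.01 against 8.78, 8.86 and 8.79, a difference of 0.24 (SE 0.079, adjusted p = 0.333). In both genes every CD133+ array was above every CD133- array. The remaining genes under an unadjusted p of 0.05 were BOC, EVC2 and GPR161, named after their values were seen. BOC was higher at 0.34 (SE 0.13), also without overlap, and EVC2 (-0.26) and GPR161 (-0.24) were lower in each repetition. Of the list, 3 genes were higher without overlap and 1 was lower, TULP3 (-0.21), also named after its value was seen. Over all genes 3.43% were higher and 4.52% lower without overlap. PRKACB was called with trend and robust variances (adjusted p = 0.0415), and its adjusted p ranged from 0.0593 to 1.00 over the other alternatives.

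Genes reported as responsive to Hedgehog signals in gut mesenchyme or as GLI targets were measured for 13 of 14. Of the 13, 12 were below 0 (median -0.073), where 9587 of all 18404 genes were below 0. The count called was 0, against 0.369% of all genes. At an unadjusted limma p under 0.05, 1 was lower, BMP4, and 0 were higher, where all genes gave 5.73% lower and 5.90% higher. By mean signal, 8 of the 13 lay above the median of all probe sets. In every repetition 3 of the 13 were lower, beside 18.4% of all genes. The list shares HHIP and JAG2 with the genes above, and JAG2 was its 1 member above 0. BMP4, a ligand that gut mesenchyme makes in response to Hedgehog, had the widest gap. It measured 8.33, 8.66 and 8.58 in CD133+ and 8.86, 8.97 and 9.16 in CD133-, without overlap, at a difference of -0.47 (SE 0.091, adjusted p = 0.141). Over all genes 4.52% were lower without overlap. BMP4 was called with dim probe sets removed (adjusted p = 0.0337) and with trend and robust variances (0.0229), and its adjusted p ranged from 0.127 to 1.00 over the other alternatives. The mesenchymal transcription factor genes FOXF1, FOXF2 and FOXL1 had -0.053, -0.13 and -0.0016. Of the 8 fibroblast markers 6 were below 0, with a median difference of -0.027 and 0 called, against 0.369% of all genes.

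**Figure D4:**
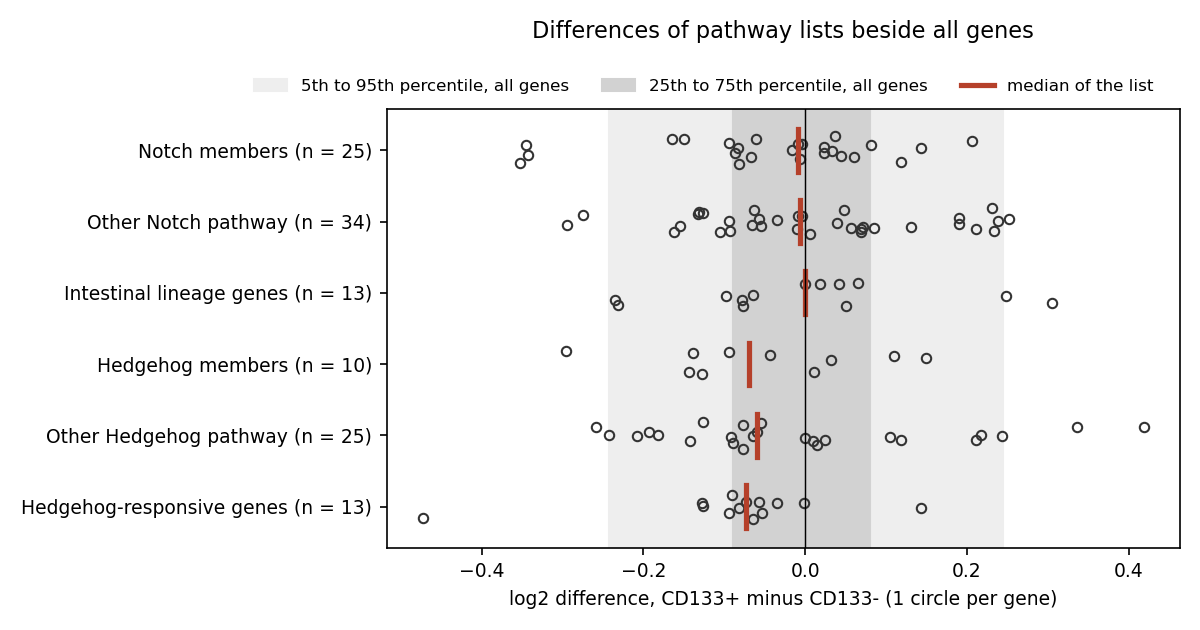
Log2 difference (CD133+ minus CD133-) of each measured gene, 1 circle per gene, in 6 lists, with the list median as a red bar and the 5th to 95th (-0.24 to 0.25) and 25th to 75th percentiles of all genes as grey bands. Most circles lie within the outer band, with HES1, HEY2, MAML2, PTCH1, BMP4, AAK1, DNER, EVC2 and GPR161 below it and PRKACB, BOC, ASCL2, MAML3 and KLF4 above it.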

How the data were processed

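Log2 signals of 6 arrays (3 per CD133 fraction of HCT116 cells) were deposited after RMA by the authors, per the labels' design text and the submitters' processing notes; no version of the RMA software is given in the sources. The design text speaks of U133 chips, but identifiers and annotation match a Human Gene ST array, and the annotation was followed. Of 32321 rows, 4091 leading rows without annotation were left out as controls, leaving 28230 probe sets, of which 19158 carried 1 symbol; 1388 with several symbols named no gene. No dim probe set was removed. The number of arrays limits the precision.

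CD133+ minus CD133- was estimated over all probe sets by lmFit and eBayes (limma 3.58.1, R 4.3.3), with repetition as a block, and Benjamini-Hochberg adjusted at 0.05. Deviations from the group mean correlated between the 2 arrays of repetition 1 (0.447), repetition 2 (0.616) and repetition 3 (0.589), so the data pair the arrays by number, while no label names a shared culture. The fit was tested on simulated data of this comparison (28230 probe sets, 50 altered at each size). It called 0 at a log2 change of 0.5, 24 at 1, 43 at 1.5 and 41 at 2, and 0 unaltered ones; the differences of all 35 genes were under the smallest of these sizes.

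The genes and lists were chosen with earlier results of these data known. All 36 genes were named. Values in every array were given for genes called, of 1 sign in all 3 repetitions or under an unadjusted p of 0.05 in either fit, or else for the brightest gene of a role. From 4 lists of other genes the 2 with the smallest p were named where 0 passed. Array values of NOTCH3 and RBPJ, and other genes said to be so, were added after the data were seen. Alternatives were fits without the block or without single arrays or repetitions, other normalizations, filters, probe set choices and variance models.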

Additional observations from a re-analysis of the deposited data

How the results depend on the processing

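The count of Notch genes called was 0 in every alternative run but the eBayes trend and robust variances, which gave 1 (HES1), and that of Hedgehog genes was 0 in all of them. Beside the 84 probe sets called, 1 was called with no replicate block, 0 with the leading rows kept (limma, 3051 at an unadjusted p under 0.05), 403 above the median mean signal, where fewer probe sets were tested, and 389 with trend and robust variances; leaving out a repetition (with the block) or an array (without it) gave 0 to 43. The list of other pathway genes gave 1 call above the median mean signal and 2 with trend and robust variances. PROM1 kept its difference of 2.77 but lost its call with no replicate block (adjusted p = 0.142) and with the leading rows kept (0.109), and ranged from 2.47 to 3.13 with arrays left out. The Notch median of -0.0084 ranged from -0.10 to 0.064 with arrays left out; the Hedgehog median of -0.069 ranged from -0.12 to -0.0065, and was -0.044 above the median mean signal, where 3 dim genes drop out. Of 250 recomputed differences of 16 genes, 241 kept direction and side, 1 gained a call (HES1) and 8 changed sign, all with arrays or repetitions left out: SHH ranged from -0.12 to 0.16, SUFU from -0.098 to 0.025, NOTCH4 from -0.21 to 0.026 and MAML2 from -0.68 to 0.0056. The count of genes at an unadjusted p under 0.05 and lower, recounted after the data were seen, was 1 to 3 with arrays left out, 2 with no replicate block and 2 above the median mean signal; that of higher genes was 1 without CD133- repetition 3 and 0 in the other alternatives. PTCH1 ranged from -0.55 to -0.012 with arrays left out. The cause of these changes was not tested, except that a left-out array unbalances the repetitions. Gene signals below the median of all probe sets limit what DLL3, DLL4, LFNG, MFNG, MAML2, HEY1, HEY2, HHIP, GLI1 and GLI3 can show. The same limit holds for MAML3, APH1B, ASCL2, NEUROG3, LGR5, OLFM4, BOC and EVC2 from the lists of other genes.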
